A study of Mus musculus with 10 samples.

Results

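The monocyte chemoattractant CC chemokines of mouse chromosome 11 were examined across the 5 groups of a cap analysis of gene expression (CAGE) study of the hippocampus after status epilepticus (SE). They were taken by exact symbol as *Ccl2*, *Ccl7*, *Ccl11*, *Ccl12* and *Ccl8*, which are 5 of the 15900 genes listed. All 5 passed the filter on low values and were tested among 15851 genes. The animals were male ICR mice aged 9 to 10 weeks at SE, with 2 mice in each group and 1 library per mouse from whole hippocampus. Pre-SE mice carry the label untreated, and the methods describe saline in place of pilocarpine (PILO) for control mice. SE was induced by PILO after methyl scopolamine and ended with diazepam, so that all 4 post-SE groups had received these 3 agents. The SE 6 h and SE 2 days groups received no further drug. In the SE + LEV 6 h and SE + LEV 2 days groups, levetiracetam (LEV), an anti-epileptic drug, had been given orally 1 time and 5 times before sampling, respectively.

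Chemokines are small secreted proteins that guide the movement of leukocytes through G protein-coupled receptors. *Ccl2* (MCP-1), *Ccl7* (MCP-3) and *Ccl12* (MCP-5, a rodent gene) encode ligands of CCR2, the receptor that draws inflammatory monocytes out of the blood, while *Ccl8* (MCP-2) acts in the mouse mainly through CCR8 and *Ccl11* (eotaxin) through CCR3, the receptor of eosinophils. In the brain, glia and cells of the vessel wall can release CCL2 after injury, and monocytes can follow it into the tissue.

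On the mm9 assembly the 5 genes lay on the plus strand of chromosome 11 within 81.2 kb, and each had 3 exons. *Ccl2* (ENSMUSG00000035385) was annotated at chr11:81849073-81850955 and *Ccl7* (ENSMUSG00000035373) at chr11:81859214-81861027. *Ccl11* (ENSMUSG00000020676) followed at chr11:81871325-81876457, *Ccl12* (ENSMUSG00000035352) at chr11:81915347-81916902 and *Ccl8* (ENSMUSG00000009185) at chr11:81928687-81930301. The widest gap between neighbours, 38889 bases, separated *Ccl11* from *Ccl12*. *Gm17268* on the minus strand overlapped *Ccl2*, with its annotated start (chr11:81852064) beyond the end of *Ccl2*. Use of strand in the counting is not given in the sources used here. Tags of *Gm17268* that arise within *Ccl2*, away from that start, could therefore be counted for *Ccl2*. No annotated gene overlapped the other 4 members.

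The promoter table of RefSeq (GRCm38.p6) held 2 of the 5 members, *Ccl12* and *Ccl8*, the genes of the distal end, and not *Ccl2*, *Ccl7* or *Ccl11*. Both promoters are shown because only these 2 members had an entry. Each window of 250 bases before to 50 bases after the start occurred 1 time in mm9, on the plus strand, at chr11:81915097-81915396 for *Ccl12* and at chr11:81928437-81928736 for *Ccl8*. In the sequences, written 5′ to 3′, capitals mark TATAAA.
Ccl12: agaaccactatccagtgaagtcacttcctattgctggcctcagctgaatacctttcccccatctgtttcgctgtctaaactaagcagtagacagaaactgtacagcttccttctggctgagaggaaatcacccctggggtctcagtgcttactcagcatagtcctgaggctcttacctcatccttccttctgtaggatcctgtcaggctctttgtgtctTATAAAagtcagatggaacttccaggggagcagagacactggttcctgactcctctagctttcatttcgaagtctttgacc
Ccl8: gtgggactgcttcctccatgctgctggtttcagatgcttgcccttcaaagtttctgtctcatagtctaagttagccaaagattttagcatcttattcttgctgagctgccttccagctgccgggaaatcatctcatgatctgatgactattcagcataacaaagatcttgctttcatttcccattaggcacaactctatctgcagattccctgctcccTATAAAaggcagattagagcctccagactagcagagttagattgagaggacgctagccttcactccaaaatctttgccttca
The TATAAA began 31 bases before the start in *Ccl12* and 32 bases before it in *Ccl8*. Of 32544 promoters in the table, 13.6% held TATAAA on either strand, and 2.42% held it on the plus strand between 50 and 15 bases before the start. The pair was identical in 175 of 319 aligned columns (54.9%). Both strands were also searched for TGANTCA (AP-1; in 7.79% of all promoters), the NF-kappaB consensus (8.49%), TTCNNNGAA (STAT; 8.33%), the ISRE (GAAA, any 2 bases, GAAA; 3.45%) and CCAAT (37.4%), and none was found in either window.

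Values are CPM, the number of tags of a gene relative to all tags of the listed genes in its library. Each CAGE tag marks a transcription start, so that levels of different genes compare without a correction for length. Inferred from the steps of the CPM values, the totals over the listed genes ran from 10540698 to 51710968 tags per library. A count of 3 tags, used as detection limit, equals 0.058 to 0.285 CPM. Differences (logFC) were estimated with limma on log2(CPM + 0.1), a scale that shrinks the changes of low-CPM genes, and genes were called at an adjusted p of at most 0.05 (Benjamini-Hochberg over all genes tested). Nothing in the labels says more of the replicates than their numbers, so the p-values measure the spread between these mice. All 5 neuronal markers examined were present in every group (summed 1849 to 3600 CPM).

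At 6 h after SE, 3 of the 5 members (*Ccl2*, *Ccl7* and *Ccl11*) were called higher than in pre-SE mice and none was called lower, where 2.76% of all genes tested were called higher and 0.202% lower. The median logFC of the 5 was 3.9, beside −0.13 over all genes. In 4 members both SE 6 h mice lay above both pre-SE mice, against 18.6% of all genes.

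*Ccl2* measured 0.28 and 0.37 CPM in the 2 pre-SE mice, whereas SE 6 h mice had 14.75 and 28.91 CPM. The groups did not overlap, and *Ccl2* rose by a logFC of 5.62 (SE 0.68, adjusted p = 0.003), the 21st highest of 15851 genes. *Ccl7* measured 0.03 and 0.02 CPM before SE, which is 2 tags in all, and 2.05 and 1.71 CPM at 6 h. It rose by a logFC of 3.98 (SE 0.90, adjusted p = 0.044), and the ratio of pooled CPM was 78.5 (95% counting interval 21.1 to 658). These intervals cover counting error only. The call of *Ccl7* is close to the threshold. Its adjusted p was 0.18 and 0.19 without pre-SE replicate 1 or 2, 0.16 and 0.21 without SE 6 h replicate 1 or 2, 0.064 and 0.063 without SE 2 days replicate 1 or 2, and 0.089 and 0.12 with pseudocounts of 0.5 and 1 CPM. With a filter of 1 CPM it was 0.051 and without the mean-variance trend 0.063.

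*Ccl11* measured 0.03 and 0.04 CPM in pre-SE mice (3 tags in all) against 1.73 and 2.12 CPM at 6 h, its highest group. It rose by a logFC of 3.90 (SE 0.62, adjusted p = 0.0099), and the 95% counting interval of the ratio of pooled CPM was 16.5 to 247. Without pre-SE replicate 1 or 2 the adjusted p was 0.068 and 0.057, and without SE 6 h replicate 1 or 2 it was 0.052 and 0.085. *Ccl12*, the most abundant member before SE, measured 0.79 and 0.60 CPM in pre-SE mice and 5.93 and 6.78 CPM at 6 h. Both SE 6 h mice lay above both pre-SE mice, but the logFC of 3.03 (SE 0.75) had an adjusted p of 0.066 and was not called. It was called without SE + LEV 2 days replicate 1 or 2 (adjusted p = 0.03 and 0.029) and with only the 2 groups compared in the fit (0.011). *Ccl8* measured 0 and 0.06 CPM before SE and 0.06 and 0.41 CPM at 6 h, and the groups overlapped (logFC 1.18, SE 0.60, adjusted p = 0.34). That is 8 tags against 3, a ratio of pooled CPM of 4.7 (95% counting interval 1.13 to 27.5).

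**Figure D1:**
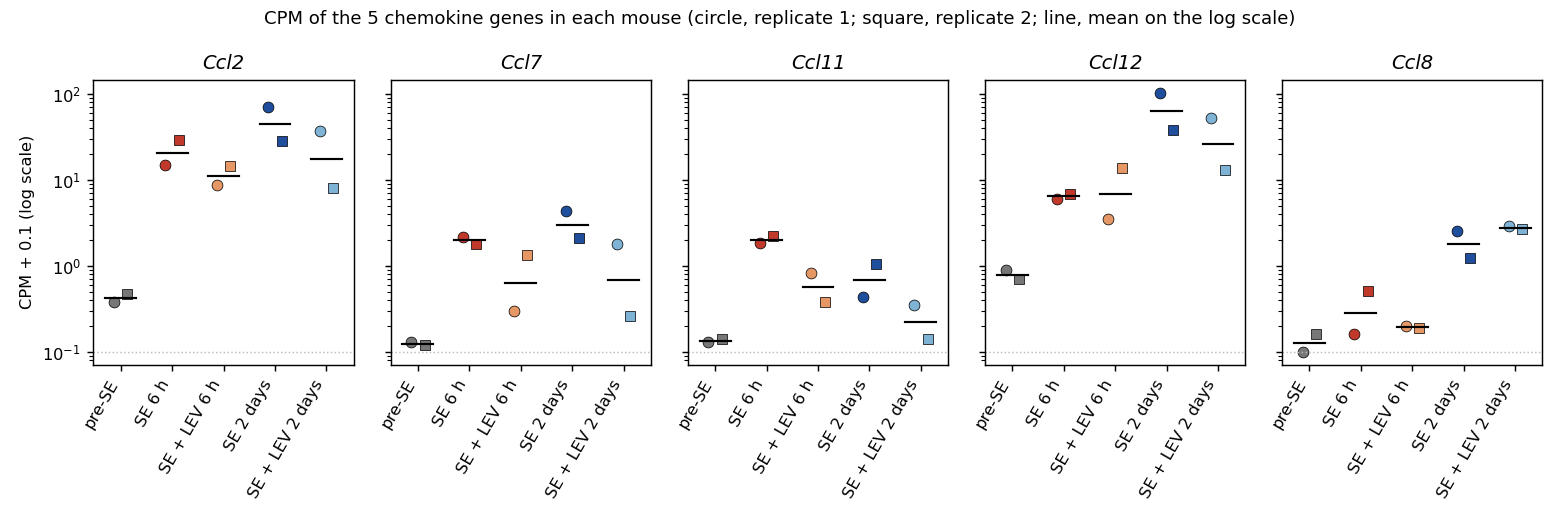
CPM + 0.1 on a log axis for the 5 genes, 1 panel per gene, with 1 point per mouse (circle, replicate 1; square, replicate 2), a line at the mean on the log scale and a dotted line at 0 CPM. *Ccl2* and *Ccl12* reach 70.3 and 102.99 CPM, *Ccl11* is highest in the SE 6 h mice, and *Ccl8* stays at or below 0.41 CPM until the 2 days groups, where it lies between 1.15 and 2.77 CPM.

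At 2 days after SE, 4 members were called higher than in pre-SE mice (*Ccl2*, *Ccl7*, *Ccl12* and *Ccl8*), where 5.07% of all genes were called higher and 0.593% lower, and none was called lower. The median logFC was 4.59, beside −0.03 over all genes. In all 5 members both SE 2 days mice lay above both pre-SE mice, against 26.3% of all genes.

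*Ccl12* measured 102.99 and 37.88 CPM in the SE 2 days mice, and the first was the highest value of any member in any mouse. The 2 mice differed 2.72-fold, and both lay far above the pre-SE mice (95% interval of the logFC 4.63 to 7.98). *Ccl2* measured 70.3 and 28.08 CPM (95% interval 5.20 to 8.24), again higher in replicate 1. The adjusted p was 0.0015 for *Ccl12* and 0.0011 for *Ccl2*, and both genes kept their calls at 2 days, and *Ccl2* also at 6 h, under every alternative that was run. *Ccl7* measured 4.2 and 2.01 CPM (logFC 4.59, SE 0.90, adjusted p = 0.015), and the ratio of pooled CPM to pre-SE was 128 (95% counting interval 34.7 to 1070). Its adjusted p was 0.082 and 0.071 without pre-SE replicate 1 or 2, and 0.082 and 0.075 without SE 2 days replicate 1 or 2.

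*Ccl8* measured 2.42 and 1.15 CPM at 2 days, from 81 tags against 3 before SE, a ratio of pooled CPM of 48.9 (95% counting interval 16.2 to 242). It rose by a logFC of 3.81 (SE 0.60, adjusted p = 0.0052), and the call was lost without pre-SE replicate 1 (0.051). *Ccl11* measured 0.34 and 0.96 CPM at 2 days, above both pre-SE mice, a ratio of pooled CPM of 16.9 (95% counting interval 5.23 to 87.0). Its logFC of 2.34 (SE 0.62, adjusted p = 0.057) was not called, although it was called without SE + LEV 2 days replicate 1 or 2 (0.035 and 0.034) and with a pseudocount of 0.01 CPM (0.048). In whole tissue, fewer cells of a type and less RNA per cell cannot be told apart, for these genes and for all that follow.

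The members separated by time when SE 2 days was compared with SE 6 h. *Ccl12* and *Ccl8* were called higher at 2 days, 2 of the 5 members, where 3.14% of all genes were called higher and 1.11% lower. *Ccl12* was higher by a logFC of 3.28 (SE 0.75, adjusted p = 0.039) and *Ccl8* by 2.64 (SE 0.60, adjusted p = 0.038), with both SE 2 days mice above both SE 6 h mice in each (31.0% of all genes). *Ccl11* went the other way, with both SE 2 days mice below both SE 6 h mice (20.1% of all genes), but its logFC of −1.56 (95% interval −2.94 to −0.18, adjusted p = 0.20) was not called. *Ccl2* and *Ccl7* overlapped between the times, with logFC of 1.10 (95% interval −0.42 to 2.62) and 0.61 (−1.38 to 2.61). Neither call held throughout. That of *Ccl12* was lost without pre-SE replicate 1 or 2 (adjusted p = 0.05 and 0.051, the first just above the threshold before rounding), SE 6 h replicate 1 or 2 (0.17 and 0.15) and SE 2 days replicate 1 or 2 (0.23 and 0.079), and without the mean-variance trend (0.061). That of *Ccl8* was lost without pre-SE replicate 1 or 2 (0.05, likewise above the threshold, and 0.051), SE 6 h replicate 1 (0.20), SE + LEV 6 h replicate 1 or 2 (both 0.058) and SE 2 days replicate 1 or 2 (0.22 and 0.084), with a pseudocount of 0.01 CPM (0.13), with a filter of 1 CPM (0.059) and with only the groups compared in the fit (0.071).

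The make-up of the chemokine tags followed the same division. Summed over the 5 genes, the tags came to 1.13 and 1.09 CPM before SE, 24.52 and 39.93 CPM at 6 h, and 180.25 and 70.08 CPM at 2 days. *Ccl2* and *Ccl12* together made up 84.3 to 96.1% of the sum in every mouse. *Ccl12* exceeded *Ccl2* before SE, by ratios of 2.82 and 1.62, and again at 2 days (1.47 and 1.35). At 6 h the order was turned, and *Ccl12* was at 0.402 and 0.235 of *Ccl2*. The 3 minor members shifted as well, with *Ccl11* at 7.06 and 5.31% of the sum at 6 h and 0.189 and 1.37% at 2 days.

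**Figure D2:**
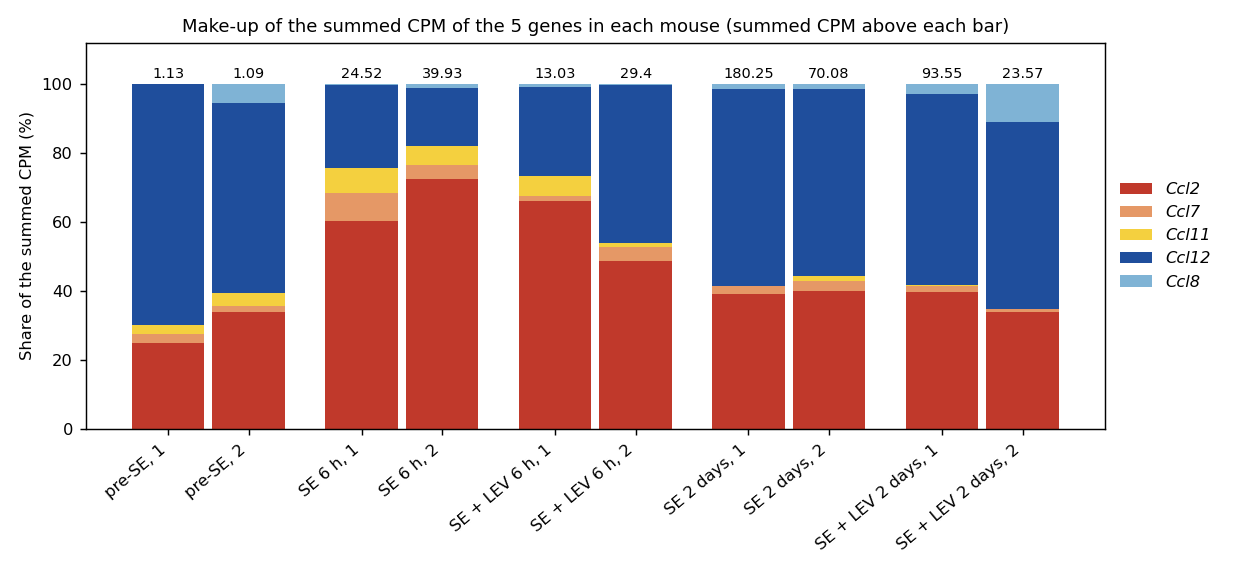
Share of the summed CPM of the 5 genes taken by each gene (y axis, %), 1 stacked bar per mouse, with the summed CPM above each bar. *Ccl2* takes 48.7 to 72.4% in the 4 mice sampled at 6 h and 34.0 to 40.1% in the 4 mice sampled at 2 days.

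The SE + LEV groups were compared with the SE groups to ask whether LEV altered these levels. At 6 h, 0 of the 5 members were called in either direction with limma, beside 0.0% of all genes called higher and 0.0126% called lower, and at 2 days 0 members were called, beside 0.0% of all genes in each direction. At an unadjusted p under 0.05, 1 member was lower at 6 h (3.42% of all genes) and 2 were lower at 2 days (1.39%). None was higher at either time (1.16% and 1.31% of all genes). Of the 5 estimates, 4 were below 0 at each time, with medians of −0.89 and −1.36, beside 0.04 over all genes at both times.

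At 6 h, *Ccl11* measured 0.73 and 0.28 CPM with LEV, against 1.73 and 2.12 CPM without it. Both SE + LEV mice lay below both SE mice, with a logFC of −1.84 (95% interval −3.22 to −0.47, limma adjusted p = 0.83). *Ccl2*, at 8.61 and 14.33 CPM with LEV, and *Ccl7*, at 0.20 and 1.23 CPM, also lay below both SE 6 h mice, so that 3 members did so, against 13.4% of all genes. Their logFC were −0.89 (95% interval −2.41 to 0.63) and −1.64 (−3.64 to 0.35), and the higher SE + LEV mouse in *Ccl2* lay close below the lower SE 6 h mouse (14.75 CPM). *Ccl12* measured 3.39 and 13.47 CPM with LEV, 1 mouse below and 1 above both SE 6 h mice (logFC 0.10, −1.58 to 1.77). *Ccl8* measured 0.10 and 0.09 CPM, from 4 tags against 8 in the SE 6 h mice, and a difference was not detectable at this depth (logFC −0.55, −1.89 to 0.78).

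At 2 days, the 2 SE + LEV mice differed more from each other than those of any other group in *Ccl2*, *Ccl7*, *Ccl11* and *Ccl12*. *Ccl2* measured 37.06 and 8.01 CPM, *Ccl12* 51.76 and 12.77 CPM, *Ccl7* 1.71 and 0.16 CPM and *Ccl11* 0.25 and 0.04 CPM, always higher in replicate 1, by ratios of 4.63, 4.05, 10.69 and 6.25. The ratio of *Ccl7* rests on 75 and 4 tags, and that of *Ccl11* on 11 and 1, the last below the detection limit. For *Ccl12* the margin was small, since the SE + LEV 6 h mice differed 3.97-fold. In *Ccl2* and *Ccl12* replicate 1 of SE + LEV 2 days lay within the range of the SE 2 days mice, and the groups overlapped (logFC −1.36, 95% interval −2.88 to 0.16, and −1.28, −2.95 to 0.40). For *Ccl7* and *Ccl11* both SE + LEV mice lay below both SE mice, 2 members against 12.2% of all genes. Their logFC were −2.13 (−4.13 to −0.14, limma adjusted p = 1.0) and −1.63 (−3.0 to −0.25, limma adjusted p = 1.0).

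*Ccl8* was the member with an estimate above 0 at 2 days. It measured 2.77 and 2.59 CPM in the SE + LEV 2 days mice, above both SE 2 days mice (2.42 and 1.15 CPM; 15.2% of all genes had both mice above), and the 2 LEV-treated mice differed only 1.07-fold. The logFC was 0.65 (95% interval −0.69 to 1.98, limma adjusted p = 1.0), so the order was not larger than the spread. The difference of the LEV effect between the times had 0 calls among the members and 0.0% among all genes in each direction, and 0 members had an unadjusted p under 0.05 (1.58% of all genes higher, 0.795% lower). The estimates ran from −1.37 (*Ccl12*, 95% interval −3.74 to 1.0) to 1.2 (*Ccl8*, −0.69 to 3.09).

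**Figure D3:**
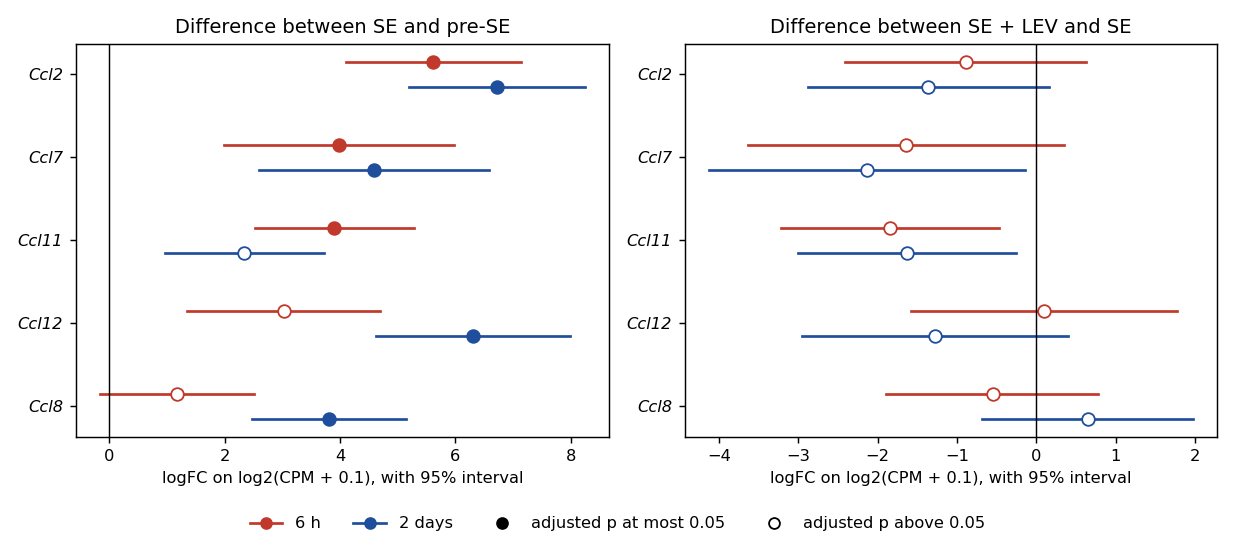
Estimated differences of each gene on the log2(CPM + 0.1) scale, with 95% intervals, for SE minus pre-SE (left) and SE + LEV minus SE (right) at 6 h (red) and 2 days (blue). Filled points mark an adjusted p of at most 0.05. All filled points are in the left panel, and on the right 4 of 5 estimates at each time lie below 0 with none filled.

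Set against pre-SE mice, 1 member was called in the SE + LEV 6 h mice (*Ccl2*, logFC 4.73, SE 0.68, adjusted p = 0.022), where 0.315% of all genes were called higher and 0.00631% lower, and in all 5 members both mice lay above both pre-SE mice (17.0% of all genes). The call of *Ccl2* was lost without pre-SE replicate 1 or 2 (0.12 and 0.094) and without SE + LEV 6 h replicate 1 or 2 (0.12 and 0.15), and with pseudocounts of 0.5 and 1 CPM (0.073 and 0.13) or no mean-variance trend (0.054). In the SE + LEV 2 days mice 3 members were called, where 2.83% of all genes were called higher and 0.0189% lower, and 4 members had both mice above both pre-SE mice (22.6% of all genes). The called members were *Ccl2* (logFC 5.36, SE 0.68, adjusted p = 0.0037), *Ccl12* (5.03, SE 0.75, 0.0069) and *Ccl8* (4.46, SE 0.60, 0.0045). The ratio of pooled CPM of *Ccl8* was 72.7 (95% counting interval 24.5 to 356). All 3 missed the threshold when only the groups compared were fitted (0.068, 0.068 and 0.051), *Ccl12* also did so without SE + LEV 2 days replicate 1 (0.053), and *Ccl7* was called without replicate 2 of that group (0.028). In that group *Ccl11* overlapped the pre-SE mice, with 12 tags against 3 and a ratio of pooled CPM of 4.74 (95% counting interval 1.28 to 26.2). These comparisons share the pre-SE mice with those of SE alone.

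Between the SE + LEV groups, *Ccl8* was called higher at 2 days than at 6 h (logFC 3.83, SE 0.60, adjusted p = 0.011), 1 of 5 members, where 2.06% of all genes were called higher and 0.0757% lower. Both SE + LEV 2 days mice lay above both SE + LEV 6 h mice (26.6% of all genes). The call was lost without SE + LEV 6 h replicate 1 or 2 (0.082 and 0.071) and without SE + LEV 2 days replicate 1 (0.094), and with a pseudocount of 0.01 CPM (0.069). *Ccl12* had a logFC of 1.91 (95% interval 0.23 to 3.58, adjusted p = 0.34) with overlapping mice. For *Ccl11* both SE + LEV 2 days mice lay below both SE + LEV 6 h mice (14.6% of all genes), with a logFC of −1.34 (−2.72 to 0.03).

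The order of the group levels divided the members. For *Ccl2* and *Ccl7* it ran from SE 2 days through SE 6 h and SE + LEV 2 days to SE + LEV 6 h with overlap between all neighbours, and pre-SE lay below without overlap. For *Ccl12* it ran from SE 2 days through SE + LEV 2 days and SE + LEV 6 h to SE 6 h, again with overlap between neighbours and none with pre-SE. *Ccl11* was highest in SE 6 h, which did not overlap SE 2 days, the next group. *Ccl8* was highest in SE + LEV 2 days, followed by SE 2 days and SE 6 h without overlap between these neighbours.

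Across the 10 libraries, Pearson's r of log2(CPM + 0.1) was 0.91 between *Ccl2* and *Ccl7* and 0.90 between *Ccl2* and *Ccl12*, values that share the step between pre-SE and all other mice. Over the 8 post-SE libraries alone they were 0.87 and 0.79. *Ccl12* and *Ccl8* gave 0.83 over 10 libraries and 0.77 over 8, whereas *Ccl11* gave −0.02 and −0.56 with *Ccl8*. Among 14673 other genes that reached 1 CPM in 2 or more libraries, those closest to *Ccl2* were *Tubb6*, a tubulin (r = 0.983), *Osmr*, the oncostatin M receptor (0.979), and *Lif*, a cytokine of the interleukin-6 family (0.973). For *Ccl7* they were *Sec24d* (0.959), *Svil* (0.958) and *Ptx3*, a pentraxin (0.955), and for *Ccl12* *Mvp* (0.97), *Tgfb1* (0.967) and *Scgb3a1* (0.965). *Ccl11* was closest to *Smad7*, an inhibitor of TGF-beta signalling (0.984), and to the transcription factors *Jun* (0.982) and *Nfil3* (0.981). *Ccl8* was closest to *Hcls1*, a gene of blood cells (0.979), *Plac8*, a gene of monocytes (0.976), and *Mgst1* (0.972). These coefficients are descriptions over 10 libraries.

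Of the receptor genes, 3 are described, and *Ccr2*, *Ccr3*, *Ccr8*, *Ackr2* and *Ackr4* were not analysed here. *Ccr1*, a signalling receptor, lay between 0 and 0.17 CPM in all mice. *Ccrl2*, an atypical receptor, lay between 0.10 and 0.72 CPM, and *Darc* (*Ackr1*), which binds chemokines on venules and red cells, between 1.30 and 5.71 CPM. With limma, 0 of these 3 were called at 6 h or 2 days after SE against pre-SE, and 0 had an unadjusted p under 0.05. With LEV none of the 3 was called against SE at either time. At an unadjusted p under 0.05 *Darc* alone was higher at 6 h (1.16% of all genes) and 0 of the 3 differed at 2 days.

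The 18 tested genes of a list of 20, made up of cytokines and transcription factors known to raise CC chemokine expression and of the NF-kappaB response genes *Nfkbia* and *Tnfaip3*, which encode inhibitors of NF-kappaB signalling, gave 6 calls at 6 h and 8 at 2 days after SE, all higher (*Ifng* and *Ifnb1* were not analysed here). *Nfkbia* (logFC 0.92 and 0.74) and *Tnfaip3* (0.71 and 0.47) were called at neither time. The largest logFC at both times, with this pseudocount, belonged to the same 4 genes. *Fosl1*, an AP-1 subunit with 2 tags before SE, rose by 6.58 at 6 h and 6.69 at 2 days (SE 0.79 at both, adjusted p = 0.003 and 0.0014). Its ratio of pooled CPM to pre-SE was 463 (95% counting interval 127 to 3830) at 6 h and 604 (166 to 4990) at 2 days. *Fos*, another AP-1 subunit, rose by 5.29 and 3.62 (SE 0.56, adjusted p = 0.0023 and 0.005). The cytokine *Il6*, listed at 0 in both pre-SE mice, measured 2.34 and 1.16 CPM at 6 h and 0.98 and 1.91 CPM at 2 days (adjusted p = 0.0049 and 0.0035). *Tnf*, the gene of tumor necrosis factor, rose by 3.93 and 3.97 (SE 0.56, adjusted p = 0.0056 and 0.0032). Against SE, 0 of the 18 were called in SE + LEV mice at either time. Of all genes, 0.0126% were called lower there at 6 h and 0.0% at 2 days, and 0.0% were called higher at each time. In this list 14 of 18 estimates were below 0 at 6 h (median −0.50) and 17 of 18 at 2 days (median −0.57). At an unadjusted p under 0.05, 4 were lower at 6 h (3.42% of all genes) and 5 at 2 days (1.39%).

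Markers of several cell types were called at 2 days, in part of each list. Against pre-SE, 2.76% of all genes were called higher and 0.202% lower at 6 h. At 2 days these shares were 5.07% and 0.593%. Of 6 monocyte markers tested, 0 were called at 6 h (0 also at an unadjusted p under 0.05) and 3 were called higher at 2 days, *S100a4* (logFC 4.95), *Ms4a4c* and *Plac8* (logFC 4.12), with *Ly6c2* and *Ccr2* not analysed here. The summed monocyte markers ranged from 29.82 to 43.69 CPM before SE, 32.87 to 56.6 CPM at 6 h and 134.04 to 310.88 CPM at 2 days, and with LEV from 37.55 to 43.16 CPM and from 113.64 to 270.48 CPM. These sums consist mostly of *S100a4*, *Fn1* and *Vcan*, genes that other cells also express, and *Fn1* and *Vcan* were not called at 2 days (adjusted p = 0.1 and 0.37). *S100a4* measured 1.83 and 3.27 CPM before SE, 2.95 and 9.52 CPM at 6 h and 57.71 and 107.37 CPM at 2 days. *Ms4a4c* was at 0 and 0.02 CPM before SE, 0.06 and 0 CPM at 6 h and 2.12 and 1.91 CPM at 2 days (ratio of pooled CPM to pre-SE 163, 95% counting interval 28.5 to 6510). Of 7 microglial markers described, 2 were called lower at 6 h (*P2ry12* and *Tmem119*) and 2 higher at 2 days (*Fcrls* and *Olfml3*). *P2ry12* (logFC −0.93) and *Siglech* (−0.74) had estimates below 0 at 2 days that were not called. At an unadjusted p under 0.05, 4 of the 7 were lower at 6 h and 5 were higher at 2 days. Summed over the 7, values ranged from 95.58 to 118.61 CPM before SE, from 46.98 to 47.62 CPM at 6 h and from 195.17 to 306.73 CPM at 2 days. *Fcrls* alone measured 43.04 and 160.48 CPM in the SE 2 days mice. Of the 6 astrocyte markers, *Gfap* (logFC 3.6) and *Aqp4* (1.57) were called higher at 2 days, while *Slc1a2* (−0.93), *Slc1a3* (−0.73) and *Gja1* (−0.98) had estimates below 0 that were not called. At an unadjusted p under 0.05 the 6 gave 3 higher and 3 lower at 2 days, and 1 higher at 6 h. *Cdh5* of the 6 endothelial markers was called higher at 6 h (3 higher at an unadjusted p under 0.05 at each time), and so was *Mpo* of the 3 neutrophil markers tested (3 higher at 6 h and 0 at 2 days). None of the 6 fibroblast, 4 mural, 5 neuronal or 3 measured choroid plexus markers was called at either time. At an unadjusted p under 0.05, 3 fibroblast markers were higher at 2 days, 1 neuronal marker was lower at each time, and the other tests of these 4 lists gave 0. The shares of all genes at an unadjusted p under 0.05 against pre-SE are not given here. The unadjusted counts of these marker lists therefore have no rate to be read against. Eosinophil and T cell markers were not analysed here. The part of these cells in the chemokine values was not tested.

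Markers of the choroid plexus, a tissue outside the hippocampus, differed widely between mice of the same group. The summed choroid plexus markers were 12.49 and 1703.36 CPM in the pre-SE mice, 8.5 and 3998.95 CPM in the SE 6 h mice, 864.62 and 39.84 CPM in the SE + LEV 6 h mice, 67.47 and 22.83 CPM in the SE 2 days mice and 1500.22 and 26.41 CPM in the SE + LEV 2 days mice. The mouse with the higher sum also had more *Ccl8* in 5 of 5 groups, more *Ccl2* and *Ccl11* in 4, more *Ccl12* in 3 and more *Ccl7* in 2. For *Ccl8*, the pre-SE mice (0 and 3 tags) and SE + LEV 6 h mice (3 and 1 tags) did not exceed the detection limit of 3 tags. The same held in the pre-SE mice for *Ccl11* (1 and 2 tags) and *Ccl7* (1 and 1 tags). It also held for *Ccl11* in replicate 2 of SE + LEV 6 h (3 tags) and of SE + LEV 2 days (1 tag). The share of all genes with such an order is not given here. The summed monocyte markers gave the same counts as the choroid plexus sums for *Ccl2*, *Ccl7*, *Ccl11* and *Ccl12*, and 3 for *Ccl8*. The summed list of cytokines and transcription factors gave 5 for *Ccl11*, 4 for *Ccl8*, 3 for *Ccl2*, 2 for *Ccl12* and 1 for *Ccl7*. In the SE 6 h mice this sum was nearly equal, at 1473.75 and 1483.21 CPM. Summed microglial markers gave 4 for *Ccl11*, 3 for *Ccl12* and *Ccl8*, and 2 for *Ccl2* and *Ccl7*. The part of the choroid plexus in the values was not tested.

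Of 9 genes annotated within 500 kb of the cluster, only *Accn1*, an ion channel gene, was listed. Its logFC was −0.25 at 6 h (SE 0.19, adjusted p = 0.53) and −0.19 at 2 days (SE 0.19, adjusted p = 0.65), and it was called at neither time.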

How the data were processed

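CAGE libraries of whole hippocampus from 10 mice were used. Per the methods, tags were aligned to mm9 by BWA 0.7.17, then HISAT2 2.0.5, and clustered by RECLU with removal of clusters below 0.1 CPM. The authors deposited CPM per gene and mouse, scaled to the listed genes. The step from clusters to genes is not given in the sources used here. The number of per-mouse columns left out was 0.

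Groups came from the labels. Genes reaching 0.1 CPM in 2 or more libraries were fitted with limma 3.58.1 (R 4.3.3) on log2(CPM + 0.1), with 10 libraries, 5 group means and a mean-variance trend (two-sided, Benjamini-Hochberg). The method was tested on simulated data. Tag numbers inferred from CPM steps served only for depth and counting intervals. The planned edgeR and DESeq2 tests were not run, since whole tags were not recovered surely enough in every library. The tag numbers and counting intervals given above share this limit. Alternatives were pseudocounts of 0.01, 0.5 and 1, no filter, a filter of 1 CPM, median-of-ratios rescaling, a replicate block, no trend, only the groups compared, and each mouse left out. Members and lists were chosen with earlier results of these data known. Named genes were the members, the measured receptors, up to 4 genes of the list of inducers and NF-kappaB response genes with the largest called logFC at each time, the 3 genes most like each member, and tested neighbours. Some genes of the lists are not reported here and were left out of list counts and sums. Called markers and those with values of their own were named after their values were seen. Python 3.11.15 was used for tables.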

Additional observations from a re-analysis of the deposited data

Results flagged for a closer look

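In 3 cases the effect of a condition on a member differed between 6 h and 2 days by a test of the difference itself, which with shared pre-SE mice equals the direct comparison of the times. The SE effect on *Ccl12* was larger at 2 days by a logFC of 3.28 (limma, adjusted p = 0.039), and that on *Ccl8* by 2.64 (limma, adjusted p = 0.038). The SE + LEV effect on *Ccl8* was larger at 2 days by 3.83 (limma, adjusted p = 0.011). Both mice sampled at 2 days lay above both sampled at 6 h in each case, as in 31.0% of all genes for SE and 26.6% for SE + LEV. At 6 h *Ccl8* had only 8 tags in the SE mice and 4 in the SE + LEV mice. Each of the 3 calls was lost under some of the alternatives, as given above.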

How the results depend on the processing

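Rescaling by median of ratios, which moved the median logFC of all genes at 6 h from −0.13 to 0, and testing without a filter changed no count of members called. Of 900 alternative values for single members, 823 kept direction and side of the threshold, 54 lost a call, 8 gained one and 15 turned direction. For SE 2 days against SE 6 h (2 called) there was 1 with a pseudocount of 0.01, with a filter of 1 CPM, without the trend or with only the groups compared. For SE + LEV 6 h against pre-SE (1 called) there were 0 with pseudocounts of 0.5 and 1 or without the trend. There were 0 for SE + LEV 2 days against pre-SE with only the groups compared (3 called), and 0 for SE + LEV 2 days against SE + LEV 6 h with a pseudocount of 0.01 (1 called). Causes were not tested.

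With single mice left out, members called ran from 1 to 4 for SE 6 h against pre-SE, 2 to 5 for SE 2 days against pre-SE, 0 to 2 for SE 2 days against SE 6 h, 0 to 1 for SE + LEV 6 h and 2 to 4 for SE + LEV 2 days against pre-SE, 0 to 1 between the SE + LEV groups, and 0 to 0 for both comparisons of SE + LEV with SE and for the difference of LEV effects. A lone mouse was assumed to vary like the other groups. Directions turned as follows, with no call on either side. For SE + LEV against SE at 6 h, *Ccl12* was −0.88 without SE + LEV 6 h replicate 2 and *Ccl8* 0.28 without SE 6 h replicate 2, in ranges of −0.88 to 1.08 and −1.39 to 0.28. Between the SE + LEV groups, *Ccl2* was −0.47 without SE + LEV 2 days replicate 1, and *Ccl7* −0.96 and −1.28 without SE + LEV 6 h replicate 1 or SE + LEV 2 days replicate 1, in ranges of −0.47 to 1.73 and −1.28 to 1.52. In the difference of LEV effects, *Ccl2* was 0.01, 0.19 and 0.63 without SE 6 h replicate 1, SE 2 days replicate 1 or SE + LEV 2 days replicate 2 (range −1.57 to 0.63). There *Ccl7* was 0.58, 0.02 and 0.91 without SE + LEV 6 h replicate 2, SE 2 days replicate 1 or SE + LEV 2 days replicate 2 (range −1.89 to 0.91). *Ccl11* was −0.30 with a pseudocount of 0.01, and −0.35, −0.42 and −0.44 without SE + LEV 6 h replicate 2, SE 2 days replicate 1 or SE + LEV 2 days replicate 1 (range −0.44 to 0.88).

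Same-numbered mice are different animals. Their deviations correlated by 0.34 between pre-SE and SE 6 h and by −0.44 between pre-SE and SE + LEV 2 days. With 2 mice per group, these values cannot show whether same-numbered samples share more than a number. The replicate block gave 2 members called for SE 6 h and 4 for SE 2 days against pre-SE, 0 for SE 2 days against SE 6 h, and the unblocked counts elsewhere. With the numbers of SE + LEV 2 days crossed, added after the data were seen, the first 3 counts were 3, 5 and 2.

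The edgeR and DESeq2 alternatives were not run. With 2 mice per group and 2 or 3 tags per gene before SE for *Ccl7*, *Ccl11* and *Ccl8*, fold changes of these genes carry wide counting intervals.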
